A study of Homo sapiens with 183 samples.

Results

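The messenger RNA of 9 transcription factor genes linked to basal and squamous cell states was followed across 8 expression tables from human cancer cell lines, with 60 libraries of AsPC-1, 39 of T3M-4, 27 of BxPC-3, 17 of CFPAC-1 and 8 of each of 5 other lines. The genes are TP63, ZBED2, TFAP2A, TFAP2C, BNC1, SOX2, SOX15, ZNF750 and PITX1. They were chosen by name, with earlier results of these data known, and are 9 of the 19875 genes listed in each table. Every member was found in every table.

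The classical pancreatic adenocarcinoma lines were AsPC-1 and SUIT-2, the basal-like pancreatic lines BxPC-3 and T3M-4, and CFPAC-1 was a further pancreatic line. T84 is a colorectal line, A375 a melanoma line, H1048 a small cell lung cancer line of the tuft cell-like kind and RH30 a rhabdomyosarcoma line. In the knockout experiments, cells that stably carried Cas9 received a guide against KLF5, RUVBL1, RUVBL2, CDK1, RPA3 (labelled Rpa3), CHD4 or SERPINB5, or sgRosa, a control guide, and were collected on day 5. More than 1 guide was used for KLF5, RUVBL1, RUVBL2, SERPINB5 and the sgRosa control, and more than 1 is listed for CHD4. The labels do not say which library holds which, so libraries of such a group may differ in guide. CDK1 and RPA3 are common essential genes and serve as controls for loss of fitness. In the inhibitor experiments, AsPC-1 and T3M-4 cells transduced with an empty vector (EV), RUVBL1 A62T or RUVBL2 dF109 were kept for 24 h in CB-6644, a small molecule that blocks the ATPase activity of the RUVBL1/2 complex, or in DMSO. A62T and dF109 are variants that make cells resistant to the compound. Unmodified T84, A375, H1048 and RH30 cells were treated the same way. A knockout group held 2 to 6 libraries and its sgRosa group 2 or 4. Each AsPC-1 or T3M-4 derivative had 3 CB-6644 libraries and 1 DMSO library, and the other lines had 4 of each. KLF5 was knocked out in 2 numbered sets of libraries in each of BxPC-3, AsPC-1 and T3M-4. The number is the first digit of the replicate label, and the sets are called experiments here. The labels do not say that they were separate experiments, or in what order they were made. In AsPC-1 KLF5 belongs to experiments 1 and 3 while experiment 2 holds RUVBL1 and SERPINB5.

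p63, the protein of TP63, is the master regulator of basal cells in stratified epithelia. Its shorter isoform keeps the progenitor state and opens the chromatin of basal keratin genes. AP-2 factors (TFAP2A, TFAP2C), SOX family factors and the zinc finger protein BNC1 act with it in epidermis, and ZNF750 acts later, on the way to terminal differentiation. In pancreatic cancer an ectopic p63 programme marks the basal-like or squamous subtype, while KLF5 is a zinc finger factor of epithelial cells that acts in both subtypes. RUVBL1 and RUVBL2 form a hexameric ATPase found in chromatin remodelling complexes and in other assemblies. Gene-level values do not tell the p63 isoforms apart.

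On GRCh38.p14, 3 of the genes lie on chromosome 3. They are TP63 at chr3:189596746-189897276 on the plus strand, SOX2 at chr3:181711925-181714436 on the plus strand, and ZBED2 at chr3:111592900-111595346 on the minus strand. SOX15 lies at chr17:7588178-7590094 and ZNF750 at chr17:82829434-82840022, both on the minus strand. TFAP2A is at chr6:10396677-10419659 on the minus strand, TFAP2C at chr20:56629306-56639283 on the plus strand, BNC1 at chr15:83255884-83284664 on the minus strand and PITX1 at chr5:135027734-135034789 on the minus strand. Exons of 4 members overlap exons on the opposite strand: TFAP2A overlaps its antisense RNAs TFAP2A-AS1 and TFAP2A-AS2, SOX15 overlaps MPDU1, ZNF750 overlaps TBCD, and PITX1 overlaps an unnamed long non-coding RNA. The library kit does not mark strand, so reads of these overlaps cannot be told apart.

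Promoters are shown for ZBED2, SOX2 and PITX1, since their changes after KLF5 knockout and in CB-6644 carry much of what follows. Each is the RefSeq window on GRCh38.p14 from 250 bases before to 50 bases after a transcription start, 300 bases in all, printed along the gene's own strand. Capitals mark matches on either strand to GGGNGGGG, a GC box of the kind that KLF and SP factors recognise, or to CACCC, the core of the CACCC box. The ZBED2 window is chr3:111595297-111595596 on the minus strand, the SOX2 window chr3:181711675-181711974 on the plus strand, and the PITX1 window chr5:135034179-135034478 on the minus strand.
ZBED2: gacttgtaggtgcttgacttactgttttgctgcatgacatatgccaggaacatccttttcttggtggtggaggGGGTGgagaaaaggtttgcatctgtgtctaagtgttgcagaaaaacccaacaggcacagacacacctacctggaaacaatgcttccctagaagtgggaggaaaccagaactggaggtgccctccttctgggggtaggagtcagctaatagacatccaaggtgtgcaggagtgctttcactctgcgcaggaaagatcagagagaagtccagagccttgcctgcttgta
SOX2: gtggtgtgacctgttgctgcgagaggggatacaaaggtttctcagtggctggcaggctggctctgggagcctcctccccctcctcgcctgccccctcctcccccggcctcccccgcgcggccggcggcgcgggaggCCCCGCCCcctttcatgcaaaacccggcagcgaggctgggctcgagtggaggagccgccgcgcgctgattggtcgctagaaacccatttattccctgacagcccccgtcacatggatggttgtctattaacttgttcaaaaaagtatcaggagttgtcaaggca
PITX1: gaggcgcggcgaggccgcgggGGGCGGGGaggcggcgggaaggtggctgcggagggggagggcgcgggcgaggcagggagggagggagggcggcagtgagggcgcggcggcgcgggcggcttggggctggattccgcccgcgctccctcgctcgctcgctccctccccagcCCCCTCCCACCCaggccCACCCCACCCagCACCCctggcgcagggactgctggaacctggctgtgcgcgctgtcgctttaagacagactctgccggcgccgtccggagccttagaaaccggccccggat

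The ZBED2 window held 1 CACCC match on the opposite strand and a GC content of 50%. The SOX2 window, at 63.3% GC, held 1 GGGNGGGG match on the opposite strand. The PITX1 window, at 77.0% GC, held 4 CACCC matches on its own strand and 3 matches to GGGNGGGG over both strands, some of them overlapping. Of all 35116 promoter windows in the same set, 37.7% held GGGNGGGG and 59.9% held CACCC, at a median GC content of 58.7%. Of the 8 windows listed for 6 of the 9 members, 4 held GGGNGGGG and 4 held CACCC, so matches were about as common among them as among all windows. A match is a run of letters and not a measured binding site.

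Depth is unknown because the values were deposited as TPM, the share of a library's transcripts, and 11292 to 14024 genes reached 1 TPM in a library. Not all markers followed the labels. The basal keratin KRT5 had a control median of 3185 TPM in BxPC-3 and 337 TPM in T3M-4 against 1.23 TPM or less elsewhere, and the classical factor HNF4A had 49.0 TPM in AsPC-1 and 20.2 TPM in SUIT-2 against 0.215 TPM in BxPC-3. GATA6, another classical factor, did not follow them, with medians of 38.3 TPM in BxPC-3, 27.0 TPM in AsPC-1, 11.5 TPM in SUIT-2 and 7.72 TPM in T3M-4. SOX10 marked A375 (236 TPM), POU2F3 marked H1048 (476 TPM) and MYOD1 marked RH30 (746 TPM), while the melanocyte gene PMEL was at 0.884 TPM in A375 and the tuft cell channel TRPM5 at 0.0632 TPM in H1048. RUVBL1 transcript had group means of 31.5 to 49.99 TPM in sgRUVBL1 libraries and 84.2 to 162 TPM in sgRosa libraries, and RUVBL2 transcript 42.1 to 94.0 TPM in sgRUVBL2 against 97.8 to 222 TPM. KLF5 transcript was 144 to 565 TPM in sgKLF5 and 120 to 335 TPM in sgRosa, which does not check the label because edited transcripts are still counted. In CFPAC-1, libraries labelled sgCDK1 had 194 to 207 TPM of CDK1 and those labelled sgRpa3 81.0 to 91.9 TPM, against 206 to 236 TPM in sgRosa, so these labels are used with that doubt. Of 177 libraries compared with their groups across all genes, 16 were nearer another group, among them all 4 CFPAC-1 sgRosa libraries. CFPAC-1 sgRosa replicate 2 was nearest to sgKLF5. T3M-4 experiment 1 sgKLF5 replicate 2 and SUIT-2 sgRosa replicate 1 stood apart from their groups over all genes, and values of members whose call changes without these libraries are given both ways. A count over KLF5 contrasts was 26 lower and 8 higher without 4 doubted libraries, against 22 and 6 with them. The 4 were CFPAC-1 sgRosa replicates 2 and 4, T3M-4 experiment 1 sgKLF5 replicate 2 and SUIT-2 sgRosa replicate 1. SUIT-2 sgKLF5 replicate 4 was kept, although its median correlation with its group was 0.943, against 0.946 for SUIT-2 sgRosa replicate 1. The counts depend on this choice.

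Control cells carried the members in patterns that differed from gene to gene. Levels in different lines come mostly from tables normalised separately, so they are set side by side and not tested. TP63 stood at 104 ± 5.77 TPM (SD, n = 6 sgRosa libraries) in BxPC-3 and 88.0 ± 16.3 TPM (n = 6) in T3M-4, with overlapping ranges. The next line, H1048, averaged 1.29 TPM, followed by A375 at 1.03 TPM, AsPC-1 at 0.965 TPM, CFPAC-1 at 0.770 TPM, T84 at 0.408 TPM, SUIT-2 at 0.392 TPM and RH30 at 0.343 TPM. The lowest T3M-4 library held 66.6 TPM and the highest H1048 library 1.43 TPM. SOX15, an SRY-box factor of squamous epithelium, shared this split, with 54.0 ± 17.8 TPM (n = 6) in BxPC-3 and 51.4 ± 7.86 TPM (n = 6) in T3M-4. Its mean was 3.86 TPM in AsPC-1 and 0.785 TPM in T84, and neighbours among the lower lines mostly overlapped. ZNF750 reached 7.26 ± 3.41 TPM (n = 6) in BxPC-3 and 5.37 ± 2.85 TPM (n = 6) in T3M-4, and its mean was 0.124 TPM or less in every other line.

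The other members did not keep to the basal-like lines. ZBED2, a zinc finger factor derived from a transposase, averaged 25.1 ± 16.1 TPM in T3M-4 and 23.9 ± 7.04 TPM in BxPC-3, then 15.8 ± 7.63 TPM in CFPAC-1 (n = 4) and 9.38 ± 3.01 TPM in AsPC-1 (n = 14), and the ranges of these neighbours overlapped. It was at 1.86 TPM in T84 and at 0.0520 TPM in SUIT-2, the other classical line. SOX2, a stemness and foregut factor amplified in many squamous cancers, was highest in CFPAC-1 at 71.0 ± 12.9 TPM (n = 4), where TP63 averaged 0.770 TPM. It averaged 9.52 ± 5.23 TPM in T3M-4, 7.10 TPM in A375 and 2.98 ± 1.26 TPM in BxPC-3, and it was listed at 0 in all 14 AsPC-1 sgRosa libraries. PITX1, a homeodomain factor of the hindlimb that is also found in squamous epithelia, was at 109.6 ± 10.8 TPM in T3M-4 and 77.1 ± 7.18 TPM in BxPC-3 without overlap, then at 44.5 TPM in T84, 35.8 TPM in SUIT-2, 33.3 TPM in AsPC-1 and 28.0 TPM in CFPAC-1. TFAP2C was led by A375 at 93.0 TPM, followed without overlap by H1048 at 19.1 TPM, and stood at 11.6 TPM in T3M-4 but at 0.0717 TPM in BxPC-3. TFAP2A was present in every library at 1 TPM or more, from 36.2 TPM in BxPC-3 to 5.43 TPM in RH30 with most neighbours overlapping. BNC1 reached 1 TPM in 15 libraries only, 8 of them A375, and its highest control mean was 1.73 TPM in A375.

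**Figure D1:**
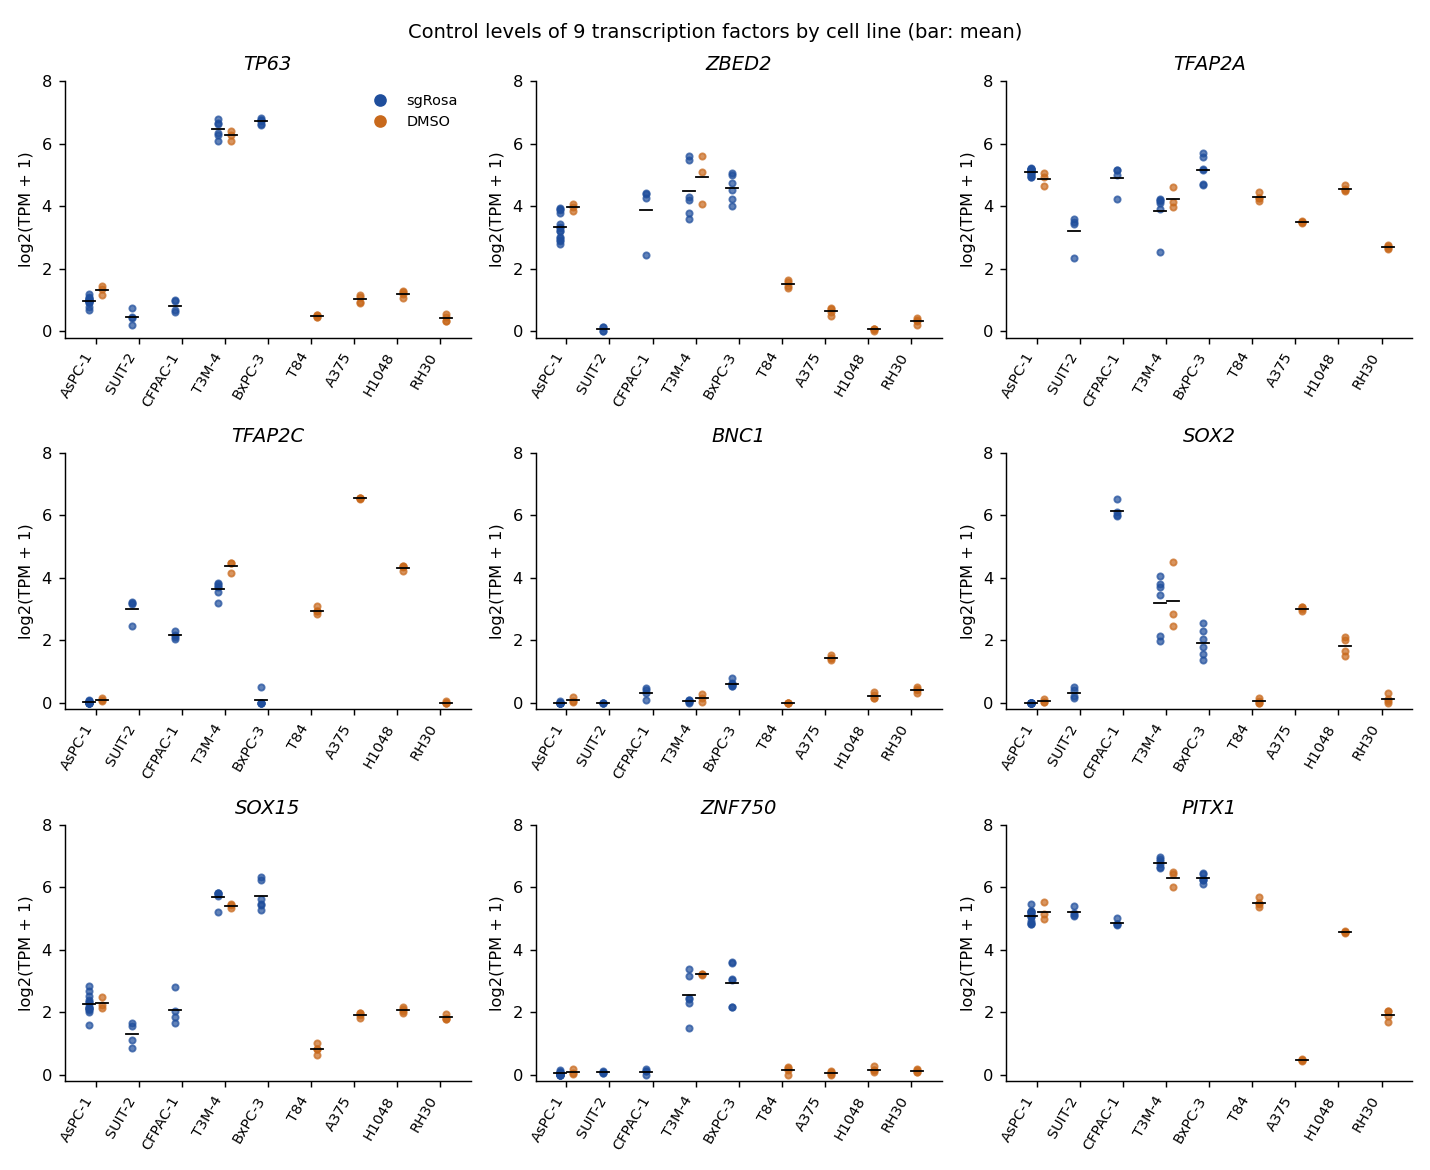
Level of each of the 9 genes in every control library, as log2(TPM + 1) on the vertical axis, by cell line. Blue points are sgRosa libraries, orange points DMSO libraries and bars are means. TP63, SOX15 and ZNF750 stand high in T3M-4 and BxPC-3 only, whereas SOX2 is highest in CFPAC-1 and TFAP2C in A375.

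Changes were tested with limma on log2(TPM + 1) across all genes that averaged at least 1 TPM in a line's experiment, and all log2 fold changes below are on that scale, which understates the change of genes near 1 TPM. A gene is called where the adjusted p was under 0.05. Over 39 contrasts of a perturbed group with its control, 242 of 351 gene and contrast pairs were tested and 95 were called. The share of all genes called ran from 0% in CFPAC-1 sgCDK1 to 81.1% in A375 in CB-6644. The total of 95 is therefore not read as a result, and each count below stands beside its own share. BNC1 was tested in 1 contrast, ZNF750 in 17 and TFAP2C in 19, because they were too low elsewhere. Of the 95 calls, 57 held under every alternative way of processing and 38 were lost under at least 1.

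Loss of KLF5 lowered ZBED2, PITX1 and SOX15 in several lines, lowered TP63 in BxPC-3 and raised SOX2. Over the 8 KLF5 contrasts, 22 of 51 tested pairs were called lower (43.1%) and 6 higher (11.8%). The higher calls include SOX2 in SUIT-2, which passed the 1 TPM filter only through its sgKLF5 libraries. Over all genes in the same contrasts 8.81% were lower and 11.8% higher. The share of all genes called was 25.9% in AsPC-1 experiment 1, 27.8% in AsPC-1 experiment 3, 3.94% in SUIT-2, 16.2% in CFPAC-1, 5.72% in T3M-4 experiment 1, 34.6% in T3M-4 experiment 2, 16.2% in BxPC-3 experiment 1 and 34.6% in BxPC-3 experiment 2. The median of all genes moved by 0.18 in SUIT-2, -0.22 in T3M-4 experiment 1, 0.10 in T3M-4 experiment 2 and -0.11 in CFPAC-1, as log2 fold changes, and member values are to be read against these shifts.

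TP63 itself fell in BxPC-3. In experiment 1 the 4 sgKLF5 libraries held 61.3, 48.8, 33.2 and 41.2 TPM against 97.6 and 96.2 TPM in sgRosa, without overlap (log2 fold change -1.09, SE 0.20, adjusted p = 0.00392). In experiment 2 they held 66.0, 75.1, 83.3 and 75.8 TPM against 105 to 111 TPM, again without overlap (-0.52, SE 0.13, adjusted p = 0.00616). In T3M-4 experiment 1 the sgKLF5 libraries held 39.2, 13.3, 49.97 and 54.4 TPM against 76.3 and 79.5 TPM, and the call was missed (log2 fold change -1.14, adjusted p = 0.219). The lowest of these is replicate 2, the library that stood apart, and without it the log2 fold change was -0.70 and called. In T3M-4 experiment 2 the 4 sgKLF5 libraries held 79.2 to 84.2 TPM and the sgRosa libraries 66.6 to 109 TPM, so the groups overlapped (log2 fold change -0.16, 95% interval -0.43 to 0.12, adjusted p = 0.368). The 66.6 TPM is sgRosa replicate 4, without which the log2 fold change was -0.31 and called, and it was -0.29 and called under median-of-ratios scaling.

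ZBED2 was called lower in 6 of 7 tested KLF5 contrasts. In AsPC-1 experiment 1 the 6 sgKLF5 libraries ranged from 0.787 to 1.41 TPM and the sgRosa libraries held 9.72 and 8.76 TPM (log2 fold change -2.31, SE 0.15, adjusted p = 2.07e-06). In AsPC-1 experiment 3 they held 2.14, 2.26, 4.23 and 5.60 TPM against 12.7 to 14.2 TPM (-1.75, SE 0.21, adjusted p = 2.26e-06). Neither experiment overlapped. The same was seen in T3M-4, where experiment 1 gave 4.86 to 6.64 TPM against 43.3 and 47.6 TPM (-2.74, SE 0.22, adjusted p = 0.000789) and experiment 2 gave 5.18 to 7.41 TPM against 11.2 to 18.5 TPM (-1.04, SE 0.14, adjusted p = 1.42e-05). In CFPAC-1 the 3 sgKLF5 libraries held 2.99, 3.21 and 3.13 TPM, below all 4 sgRosa libraries at 20.5, 4.44, 20.01 and 18.2 TPM (log2 fold change -1.84, SE 0.34, adjusted p = 0.00437). The value of 4.44 TPM is sgRosa replicate 2, the library nearest to sgKLF5, and without the doubted sgRosa libraries 2 and 4 the log2 fold change was -2.37. BxPC-3 differed between its experiments: in experiment 1 the sgKLF5 libraries held 3.33 to 6.16 TPM against 30.8 and 32.6 TPM (log2 fold change -2.46, SE 0.21, adjusted p = 2.87e-05), whereas in experiment 2 they held 17.3 to 21.8 TPM within the sgRosa range of 15 to 25.5 TPM (-0.05, 95% interval -0.42 to 0.32, adjusted p = 0.862). In SUIT-2 ZBED2 was at most 0.110 TPM and was not tested.

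SOX2 moved the other way. In BxPC-3 experiment 1 the sgKLF5 libraries held 21.0, 23.0, 18 and 20.9 TPM against 3.88 and 4.91 TPM (log2 fold change 2.01, SE 0.15, adjusted p = 1.39e-05), and in experiment 2 they held 14.4, 14.2, 10.6 and 10.4 TPM against 1.57 to 3.12 TPM (2.04, SE 0.18, adjusted p = 1.35e-07). Both experiments separated the groups fully. In T3M-4 experiment 2 SOX2 was at 27.8 to 34.0 TPM against 9.88 to 15.6 TPM (1.23, SE 0.18, adjusted p = 3.47e-05). In T3M-4 experiment 1, 3 sgKLF5 libraries held 27.4, 34.0 and 30.9 TPM and replicate 2 held 5.18 TPM, against 2.98 and 3.44 TPM. That contrast was not called with all libraries (log2 fold change 2.32, SE 0.67, adjusted p = 0.0859) and was called without replicate 2 (2.91). SUIT-2 started near 0, with sgRosa at 0.110 to 0.428 TPM and sgKLF5 at 2.25 to 3.05 TPM (log2 fold change 1.53, SE 0.15, adjusted p = 0.000895), a pseudocount of 0.1 TPM gave 3.02, and the value without sgRosa replicate 1 was 1.47. SOX2 there averaged 0.259 TPM in sgRosa and passed the 1 TPM filter only through the sgKLF5 libraries. That call is therefore no independent support for the rise. In CFPAC-1, where SOX2 was already high, sgKLF5 held 88.6 to 95.4 TPM and sgRosa 62.4, 90.1, 63.9 and 67.8 TPM. The value of 90.1 TPM is sgRosa replicate 2. With it the log2 fold change was 0.38 (adjusted p = 0.0686), and without it 0.50 and called.

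SOX15 was called lower in 5 of 8 KLF5 contrasts. BxPC-3 experiment 1 gave 19.8 to 23.5 TPM against 74.7 and 78.4 TPM (log2 fold change -1.78, SE 0.15, adjusted p = 2.82e-05), and T3M-4 experiment 2 gave 25.9 to 30.0 TPM against 35.7 to 55.4 TPM (-0.75, SE 0.11, adjusted p = 5.23e-05). In BxPC-3 experiment 2 the ranges overlapped, at 28.6 to 38.1 TPM against 37.5 to 48.0 TPM (-0.35, SE 0.12, adjusted p = 0.0288), and the call was lost without sgKLF5 replicate 2 (-0.32) or 3 (-0.28) or sgRosa replicate 2 (-0.29) or 4 (-0.35). In AsPC-1 experiment 3 SOX15 stood at 0.425 to 1.81 TPM against 3.26 to 3.99 TPM (-0.99, SE 0.19, adjusted p = 0.000432). In AsPC-1 experiment 1 it stood at 1.54 to 4.37 TPM against 6.24 and 5.48 TPM (-1.09, SE 0.24, adjusted p = 0.00812). Without either sgRosa library there the call was lost, at adjusted p = 0.0749 without replicate 1 and 0.0519 without replicate 2. T3M-4 experiment 1 was not called (log2 fold change -0.83, adjusted p = 0.115) but was called without sgKLF5 replicate 2 (-0.64). CFPAC-1 was not called with all libraries (-0.41) and was called without sgRosa replicates 2 and 4 (-0.75).

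PITX1 was called lower in 5 of 8 KLF5 contrasts, all of them in BxPC-3, AsPC-1 and T3M-4. The 6 sgKLF5 libraries of AsPC-1 experiment 1 ranged from 18.9 to 26.1 TPM against 35.8 and 43.1 TPM (log2 fold change -0.81, SE 0.12, adjusted p = 0.000898). AsPC-1 experiment 3 gave 16.9 to 22.8 TPM against 32.7 to 36.2 TPM (-0.73, SE 0.09, adjusted p = 5.1e-06). In BxPC-3 the sgKLF5 libraries held 47.0 to 50.7 TPM against 85.1 and 86.3 TPM in experiment 1 (-0.80, SE 0.08, adjusted p = 7.97e-05). None of these groups overlapped. In BxPC-3 experiment 2 they held 56.3 to 59.2 TPM against 67.7 to 75.1 TPM (-0.34, SE 0.08, adjusted p = 0.00307). In T3M-4 experiment 2 they held 75.3 to 80.0 TPM against 97.2 to 125 TPM (-0.48, SE 0.07, adjusted p = 3.05e-05), and in experiment 1 the log2 fold change was -0.60 with and without replicate 2, called only without it (adjusted p = 0.0618 with it). The other lines gave no call, with log2 fold changes of -0.10 in SUIT-2 (95% interval -0.44 to 0.25, and -0.14 without sgRosa replicate 1) and -0.04 in CFPAC-1 (-0.26 to 0.17).

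The AP-2 genes and ZNF750 had smaller or less even changes. TFAP2A was called lower in 4 KLF5 contrasts. AsPC-1 experiment 3 had 11.5 to 24.8 TPM against 29.5 to 32.8 TPM (log2 fold change -0.81, SE 0.17, adjusted p = 0.00128), and AsPC-1 experiment 1 had 19.98 to 26.7 TPM against 35.1 and 33.5 TPM (-0.54, adjusted p = 0.00768). The latter was lost without sgRosa replicate 1 (adjusted p = 0.0718) or 2 (0.0546). CFPAC-1 had 16.3 to 20.8 TPM against 34.7, 30.8, 35.0 and 17.7 TPM (-0.57, adjusted p = 0.0404, and -0.85 without sgRosa replicates 2 and 4), a call lost under 9 of 14 alternatives with adjusted p up to 0.153. BxPC-3 experiment 2 had 23.3 to 27.8 TPM against 34.6 to 50.8 TPM (-0.65, adjusted p = 0.0247). The BxPC-3 call was lost without sgKLF5 replicate 1 (-0.60) or 2 (-0.65) or sgRosa replicate 3 (-0.59) or 4 (-0.55). In T3M-4 experiment 2 TFAP2A was called higher, at 23.0 to 24.9 TPM against 16.8, 17.4, 17.7 and 4.78 TPM (log2 fold change 0.85, SE 0.27, adjusted p = 0.0191). The value of 4.78 TPM is sgRosa replicate 4, without which the log2 fold change was 0.44 and still called, and the call was lost with only these 2 groups in the fit (adjusted p = 0.0873). ZNF750 was called higher in that experiment as well, at 4.73 to 6.92 TPM against 3.93, 4.42, 4.47 and 1.83 TPM (0.57, SE 0.17, adjusted p = 0.0139). The lowest is again sgRosa replicate 4, and without it the log2 fold change was 0.35. This call was lost without sgKLF5 replicate 2 (0.50, adjusted p = 0.0523) and with only these 2 groups in the fit (adjusted p = 0.0737). TFAP2C was called in none of its 4 tested KLF5 contrasts by limma, with log2 fold changes between -0.26 and 0.08.

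**Figure D2:**
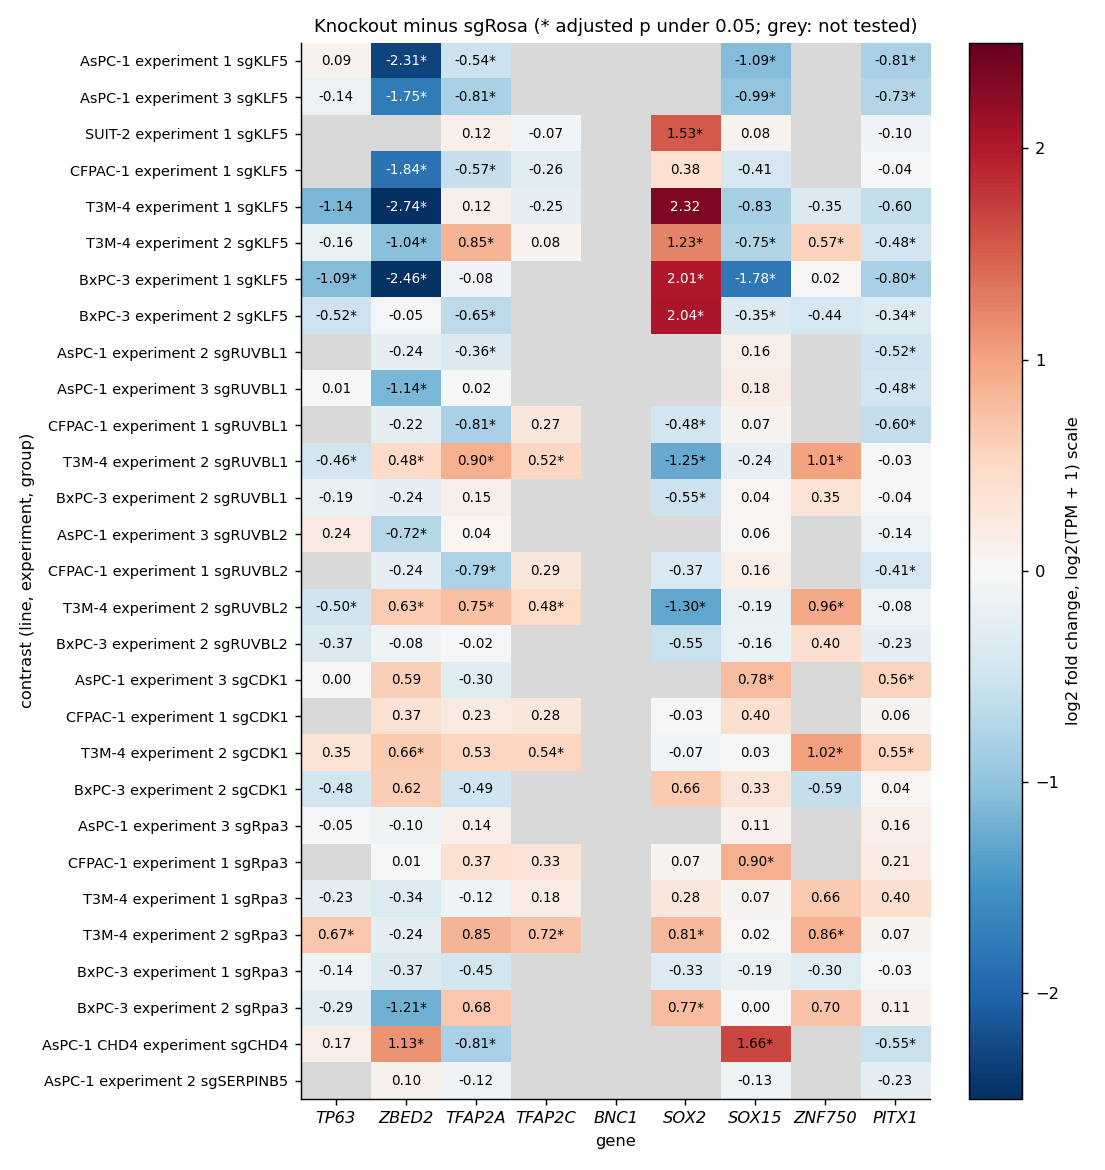
Log2 fold change on the log2(TPM + 1) scale of each gene (columns) in the 29 contrasts of a knockout group with sgRosa (rows). Blue is lower, red is higher, an asterisk marks an adjusted p under 0.05 and grey was not tested. The ZBED2 column is blue in most KLF5 rows. SOX2 is red in the KLF5 rows where it was tested and grey in AsPC-1, and it is blue in the T3M-4 RUVBL1 and RUVBL2 rows.

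The size of the KLF5 change was compared between the experiments of BxPC-3, AsPC-1 and T3M-4. Of 20 tested pairs, 4 differed and all 4 were less negative in the higher-numbered experiment, against 4.91% of all pairs lower and 8.06% higher. By line, 16.7% of genes were called in BxPC-3, 17.4% in T3M-4 and 4.28% in AsPC-1. The change in the higher-numbered experiment minus that in the other was 2.41 for ZBED2 in BxPC-3 (SE 0.29, adjusted p = 2.2e-06). It was 1.7 for ZBED2 in T3M-4 (SE 0.23, adjusted p = 0.000142). In BxPC-3 it was also 1.43 for SOX15 (adjusted p = 1.49e-05) and 0.46 for PITX1 (adjusted p = 0.00902). The median of all genes differed by 0.33 between the T3M-4 experiments. The sgRosa level of ZBED2 differed too, at 43.3 and 47.6 TPM in the first T3M-4 experiment and 11.2 to 18.5 TPM in the second. For SOX2 in BxPC-3 the difference was 0.03, with a 95% interval of -0.51 to 0.57.

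Loss of RUVBL1 or RUVBL2 gave another pattern, led by lower SOX2 in T3M-4 and lower ZBED2 in AsPC-1 experiment 3. PITX1 was also lower in AsPC-1 after RUVBL1 knockout. Over 5 RUVBL1 contrasts 10 of 30 tested pairs were lower (33.3%) and 4 higher (13.3%), against 20.1% and 25.6% of all genes. Over 4 RUVBL2 contrasts 5 of 26 were lower (19.2%) and 4 higher (15.4%), against 10.3% and 19.8%. For RUVBL1 the share of all genes called was 55.8% in AsPC-1 experiment 2, 51.9% in AsPC-1 experiment 3, 43.8% in CFPAC-1, 60.5% in T3M-4 and 16.0% in BxPC-3. For RUVBL2 it was 9.76% in BxPC-3, 54.5% in T3M-4, 43.2% in AsPC-1 and 12.1% in CFPAC-1. The median of all genes moved by 0.25 in T3M-4 sgRUVBL1, 0.19 in T3M-4 sgRUVBL2, 0.16 and 0.13 in the AsPC-1 experiment 3 groups and -0.20 in CFPAC-1 sgRUVBL1.

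T3M-4 had the most calls. SOX2 stood at 3.15, 5.82 and 5.45 TPM in sgRUVBL1 and at 3.67 to 5.29 TPM in sgRUVBL2, below the 9.88 to 15.6 TPM of sgRosa without overlap. The log2 fold changes were -1.25 (SE 0.19, adjusted p = 3.53e-05) and -1.30 (SE 0.18, adjusted p = 1.21e-05). TP63 held 59.7, 71.4 and 68.4 TPM in sgRUVBL1 and 49.8 to 77.2 TPM in sgRUVBL2, against 66.6 to 109 TPM. Its groups overlapped and its log2 fold changes were -0.46 (adjusted p = 0.00995) and -0.50 (adjusted p = 0.00403), the first being lost without sgRUVBL1 replicate 2 (-0.38, adjusted p = 0.0563). Other members rose in the same cells. ZNF750 stood at 7.99, 8.16 and 8.17 TPM in sgRUVBL1 and at 6.53 to 8.94 TPM in sgRUVBL2 against 1.83 to 4.47 TPM, with log2 fold changes of 1.01 (adjusted p = 0.000166) and 0.96 (adjusted p = 0.000155). TFAP2C stood at 15.6 to 18.5 TPM and 14 to 17.7 TPM against 8.20 to 13.3 TPM. Its log2 fold changes were 0.52 (adjusted p = 0.00299) and 0.48 (adjusted p = 0.0034). Without sgRosa replicate 4 they were 0.38 and 0.34, and those of ZNF750 were 0.79 and 0.73, all still called. Under median-of-ratios scaling the TFAP2C values were 0.24 and 0.28, also called. ZBED2 was called higher here, at 19.1 to 22.4 TPM and 20.9 to 25.8 TPM against 11.2 to 18.5 TPM (log2 fold changes 0.48 and 0.63, adjusted p = 0.0105 and 0.00112). The first of these was 0.21 and not called under median-of-ratios scaling. TFAP2A was called higher by 0.90 and 0.75, which fell to 0.48 and 0.33 without sgRosa replicate 4. With only the 2 groups compared both calls were lost (adjusted p = 0.0863 and 0.117), and the second was also lost without sgRUVBL2 replicate 2 (0.66) or 3 (0.70).

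In AsPC-1 experiment 3 ZBED2 fell, with 5.04, 7.68, 6.22 and 4.16 TPM in sgRUVBL1 and 8.06, 9.11, 9.33 and 5.63 TPM in sgRUVBL2 against 12.7 to 14.2 TPM. The groups did not overlap and the log2 fold changes were -1.14 (SE 0.21, adjusted p = 0.000181) and -0.72 (SE 0.21, adjusted p = 0.00932). In experiment 2 of the same line the sgRUVBL1 libraries held 5.12 to 7.71 TPM and overlapped the sgRosa range of 6.31 to 9.14 TPM (-0.24, adjusted p = 0.125), and this was called under median-of-ratios scaling (-0.28) and without sgRosa replicate 2 (-0.34). PITX1 fell after RUVBL1 knockout in both, at 22.2 to 27.0 TPM against 31.9 to 36.8 TPM in experiment 2 (log2 fold change -0.52, SE 0.10, adjusted p = 0.000427) and at 22.1 to 26.5 TPM against 32.7 to 36.2 TPM in experiment 3 (-0.48, SE 0.09, adjusted p = 0.000302). After RUVBL2 knockout in experiment 3 PITX1 was not called (-0.14, adjusted p = 0.244), but it was under median-of-ratios scaling (-0.30). TFAP2A was lower in experiment 2 at 22.7 to 26.9 TPM against 29.8 to 35.3 TPM (-0.36, SE 0.08, adjusted p = 0.00185). In CFPAC-1 sgRUVBL1, PITX1 held 16.8 to 19.9 TPM against 26.7 to 31.3 TPM (-0.60, SE 0.10, adjusted p = 0.000222) and TFAP2A 13.6 to 18.2 TPM against 17.7 to 35.0 TPM (-0.81, SE 0.17, adjusted p = 0.00123). SOX2 in CFPAC-1 sgRUVBL1 held 40.6 to 59.3 TPM against 62.4 to 90.1 TPM (-0.48, adjusted p = 0.00631), which was lost under median-of-ratios scaling (-0.27) and without the 4 doubted libraries of the series (-0.33). ZBED2 there was not called (-0.22, adjusted p = 0.602) and was called without sgRosa replicate 2 (-0.69). CFPAC-1 sgRUVBL2, with 2 libraries, had TFAP2A at 15.5 and 16.8 TPM (-0.79, adjusted p = 0.0194) and PITX1 at 24.5 and 17.5 TPM (-0.41, adjusted p = 0.0295), and each call was lost under 4 or more alternatives. ZBED2 in sgRUVBL2 was not called (-0.24) and was called without sgRosa replicate 2 (-0.72). In BxPC-3 the single call was SOX2 in sgRUVBL1, at 0.610 to 1.75 TPM against 1.57 to 3.12 TPM (-0.55, adjusted p = 0.0465), lost under 8 of 13 alternatives.

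**Figure D3:**
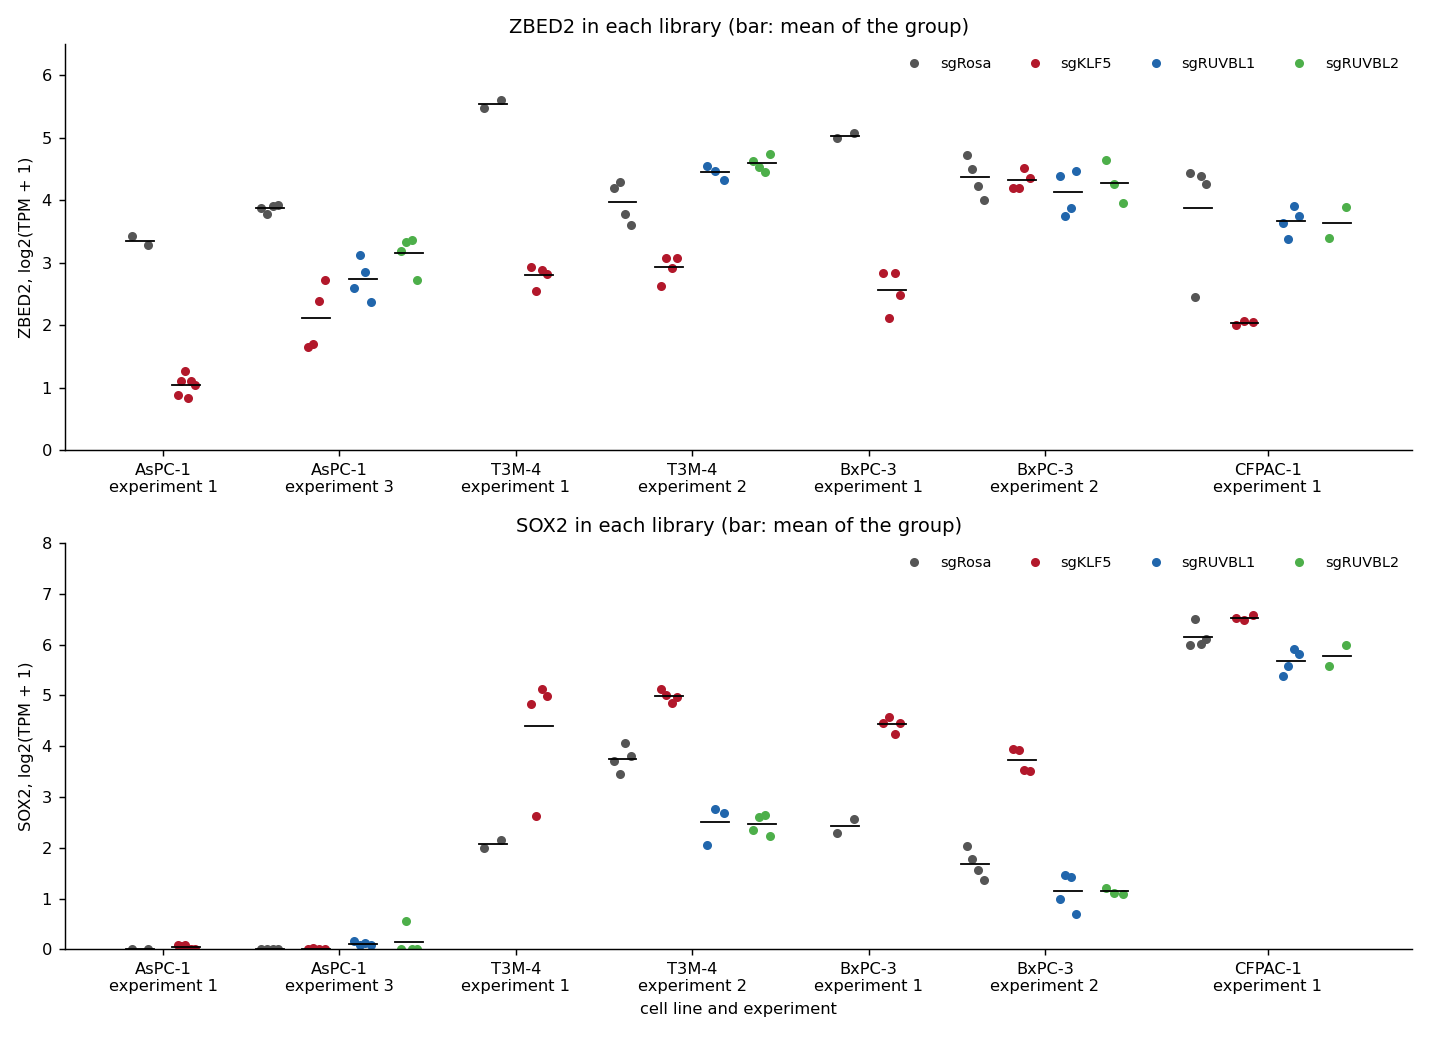
ZBED2 (upper panel) and SOX2 (lower panel) in each library as log2(TPM + 1), for sgRosa, sgKLF5 and, where made, sgRUVBL1 and sgRUVBL2, in the KLF5 experiments of AsPC-1, T3M-4, BxPC-3 and CFPAC-1, with bars at group means. SUIT-2 is not plotted. The sgKLF5 points of ZBED2 lie below sgRosa in every plotted block but BxPC-3 experiment 2, and the T3M-4 experiment 2 SOX2 points lie above sgRosa in sgKLF5 and below it in sgRUVBL1 and sgRUVBL2.

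The knockouts were then compared with each other within an experiment. RUVBL2 minus RUVBL1 gave 1 call in 26 tested pairs, PITX1 in AsPC-1 (difference of log2 levels 0.34, SE 0.09, adjusted p = 0.0449), against 3.71% of genes called in AsPC-1, 0.0235% in CFPAC-1, 0.0226% in T3M-4 and 0.0323% in BxPC-3. For SOX2 in T3M-4 that difference was -0.04, with a 95% interval of -0.45 to 0.36. KLF5 minus RUVBL1 gave 14 lower and 4 higher of 26, against 24.6% and 20.1% of all genes, with 58.5% of genes called in AsPC-1, 30.9% in CFPAC-1, 45.8% in T3M-4 and 44.0% in BxPC-3, and medians of all genes of -0.16 in AsPC-1 and -0.12 in T3M-4. SOX2 was higher in sgKLF5 than in sgRUVBL1 by 2.59 in BxPC-3 (adjusted p = 5.82e-09), 2.49 in T3M-4 (adjusted p = 1.88e-08) and 0.86 in CFPAC-1 (adjusted p = 0.00034), as differences of log2(TPM + 1). ZBED2 was lower in sgKLF5 by -0.62 in AsPC-1 (adjusted p = 0.0155), -1.63 in CFPAC-1 (adjusted p = 0.00203) and -1.52 in T3M-4 (adjusted p = 3.34e-07). SOX15 was lower by -0.40 in BxPC-3, -0.51 in T3M-4 and -1.18 in AsPC-1. PITX1 was lower in sgKLF5 in BxPC-3 (-0.31), T3M-4 (-0.45) and AsPC-1 (-0.25) and higher in CFPAC-1 (0.56, adjusted p = 0.000894).

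The essential gene controls gave fewer member calls. Their groups held 2 libraries each, fewer than most KLF5 and RUVBL1 groups, so the counts are not read as smaller changes. CDK1 knockout gave 0 lower (limma) and 6 higher of 26 tested pairs, against 3.08% and 6.78% of all genes, and RPA3 knockout gave 1 lower and 6 higher of 41, against 3.57% and 6.25%. For CDK1 the share of genes called was 16.7% in AsPC-1, 16.8% in T3M-4, 5.82% in BxPC-3 and 0% in CFPAC-1 (limma, with 1477 genes at an unadjusted p under 0.05). For RPA3 it was 0.654% in AsPC-1, 11.6% in CFPAC-1, 24.6% in T3M-4 experiment 2, 20.8% in BxPC-3 experiment 2, 0.307% in BxPC-3 experiment 1 and 0% in T3M-4 experiment 1 (limma, with 189 genes at an unadjusted p under 0.05). The median of all genes moved by 0.15 in both T3M-4 experiment 2 groups and by -0.13 in BxPC-3 experiment 1 sgRpa3. In T3M-4 the CDK1 libraries held ZNF750 at 8.35 and 7.96 TPM (log2 fold change 1.02, adjusted p = 0.0035), TFAP2C at 16.0 and 17.9 TPM (0.54, adjusted p = 0.0208), ZBED2 at 22.9 and 24.5 TPM (0.66, adjusted p = 0.0142) and PITX1 at 155 and 167 TPM (0.55, adjusted p = 0.000579). Without sgCDK1 replicate 1 or 2 the calls of TFAP2C (adjusted p = 0.0705 and 0.164) and ZBED2 (0.0705 and 0.112) were lost, and with only these 2 groups in the fit all 4 were lost (adjusted p from 0.0686 to 0.175). ZNF750, TFAP2C and ZBED2 had also been called higher against the same sgRosa libraries after RUVBL1 knockout. Without sgRosa replicate 4 the CDK1 values were 0.80 for ZNF750 and 0.40 for TFAP2C, both still called. In AsPC-1 the CDK1 libraries held PITX1 at 52.1 and 48.0 TPM (0.56, adjusted p = 0.00197) and SOX15 at 7.83 and 5.74 TPM (0.78, adjusted p = 0.0249). The PITX1 call was lost without sgCDK1 replicate 1 (0.50, adjusted p = 0.0581). The SOX15 call was lost without sgCDK1 replicate 1 (0.58, adjusted p = 0.313) or 2 (0.97, adjusted p = 0.0567), without sgRosa replicate 2 (0.75, adjusted p = 0.0531) and with a pseudocount of 0.1 TPM (adjusted p = 0.103).

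After RPA3 knockout in T3M-4 experiment 2, TP63 stood at 141 and 151 TPM (log2 fold change 0.67, adjusted p = 0.00669), above every sgRosa library. SOX2 held 17.9 and 28.8 TPM (0.81, adjusted p = 0.0131), TFAP2C 17.6 and 20.9 TPM (0.72, adjusted p = 0.0028) and ZNF750 7.64 and 6.81 TPM (0.86, adjusted p = 0.00679). Each of these calls was lost when 1 of the 2 sgRpa3 libraries was left out, at adjusted p = 0.0768 for TP63, 0.243 for SOX2 and 0.0636 for TFAP2C without replicate 2 and 0.064 for ZNF750 without replicate 1. Without T3M-4 sgRosa replicate 4 the RPA3 values were 0.52 for TP63, 0.58 for TFAP2C and 0.64 for ZNF750, all still called. In BxPC-3 experiment 2 ZBED2 fell to 7.63 and 8.21 TPM against 15 to 25.5 TPM (-1.21, adjusted p = 0.00102). SOX2 there held 4.12 and 4.92 TPM against 1.57 to 3.12 TPM (0.77, adjusted p = 0.0186). That SOX2 call was lost without either sgRpa3 library (0.88, adjusted p = 0.0834, and 0.67, adjusted p = 0.171). In CFPAC-1 the libraries labelled sgRpa3 held SOX15 at 5.77 and 8.26 TPM against 2.14 to 5.98 TPM (0.90, adjusted p = 0.0281), lost under 5 alternatives, 1 of which left out sgRosa replicates 2 and 4 (0.56, adjusted p = 0.171).

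RUVBL1 knockout was also set against the mean of CDK1 and RPA3 knockout, the controls for loss of fitness. A lower value here can come from a fall after RUVBL1 knockout or from a rise in the controls. Of 26 tested pairs 10 were lower and 0 higher (limma), against 22.8% lower and 19.4% higher over all genes. The share of genes called was 51.2% in AsPC-1, 55.4% in CFPAC-1, 41.8% in T3M-4 and 20.4% in BxPC-3, and the median of all genes was -0.28 in CFPAC-1. SOX2 was lower by -1.62 in T3M-4 (adjusted p = 5.87e-06), -1.26 in BxPC-3 (adjusted p = 0.000132) and -0.50 in CFPAC-1 (adjusted p = 0.00345), as differences of log2(TPM + 1). PITX1 was lower by -0.83 in AsPC-1 (adjusted p = 8.56e-07), -0.74 in CFPAC-1 (adjusted p = 1.66e-05) and -0.34 in T3M-4 (adjusted p = 0.0015). TP63 was lower by -0.97 in T3M-4 (adjusted p = 4.48e-05) and ZBED2 by -1.38 in AsPC-1 (adjusted p = 2.46e-05). TFAP2A was lower by -1.12 and SOX15 by -0.58 in CFPAC-1, where the control labels are in doubt. Against sgRosa, PITX1 in T3M-4 changed by -0.03 in sgRUVBL1, 0.55 in sgCDK1 and 0.07 in sgRpa3. SOX15 in CFPAC-1 changed by 0.07, 0.40 and 0.90, and SOX2 in BxPC-3 by -0.55, 0.66 and 0.77. Apart from this PITX1 and this SOX15, the pairs listed were also called lower in sgRUVBL1 against sgRosa.

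Knockout of CHD4, the ATPase of the NuRD chromatin remodelling complex, moved 4 of the 5 members tested in AsPC-1, where 50% of all genes were called, 26.7% lower and 23.3% higher. SOX15 stood at 14.6, 11.1, 10.6 and 10.4 TPM against 2.04 to 3.61 TPM in sgRosa (log2 fold change 1.66, SE 0.15, adjusted p = 2.8e-06). ZBED2 stood at 14.5 to 17.1 TPM against 5.94 to 6.99 TPM (1.13, SE 0.09, adjusted p = 8.29e-07). Both had been called lower in AsPC-1 after KLF5 knockout, against other sgRosa libraries. TFAP2A was lower at 18.8 to 20.7 TPM against 34.7 to 36.2 TPM (-0.81, SE 0.06, adjusted p = 6.19e-07), and PITX1 at 17.7 to 20.02 TPM against 27.1 to 29.0 TPM (-0.55, SE 0.07, adjusted p = 3.02e-05). None of the 4 overlapped, and all 4 calls held under every alternative. TP63 was not called (0.17, adjusted p = 0.277). After knockout of SERPINB5, which codes for the serpin maspin, none of the 4 tested members was called by limma (log2 fold changes from -0.23 to 0.10, adjusted p from 0.705 to 0.846). There 0.0343% of all genes were called, 4 genes, with 802 at an unadjusted p under 0.05.

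CB-6644 lowered ZBED2 and PITX1 in the empty vector cells of AsPC-1 and T3M-4. Against the 3 DMSO libraries of a line as 1 control, 4 of 13 tested pairs were lower and 2 higher in EV cells, against 16.2% and 32.5% of all genes. In A62T cells 1 was lower and 1 higher of 13, against 3.35% and 28.8%, and in dF109 cells 1 lower and 2 higher of 13, against 3.7% and 31.9%. In AsPC-1 64.4% of genes were called in EV, 12.7% in A62T and 33.4% in dF109, and in T3M-4 34.3%, 50% and 37.6%. The median of all genes moved by 0.19, 0.10 and 0.14 in the AsPC-1 derivatives and by 0.33 in T3M-4 A62T and 0.29 in T3M-4 dF109, as log2 fold changes. The derivatives differ in DMSO as well, each having 1 DMSO library, so the pooled control mixes cells of 3 kinds. ZBED2 in T3M-4 DMSO was 15.7 TPM in EV, 48.0 TPM in A62T and 33.4 TPM in dF109, and SOX2 was 21.6, 4.57 and 6.25 TPM. Values are therefore given beside each derivative's own DMSO library, and a fit with own DMSO libraries assumes that a lone library varies like the CB-6644 groups. In that fit 49.0% of genes were called for EV in AsPC-1 and 36.2% in T3M-4.

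ZBED2 in AsPC-1 EV cells held 7.26, 7.24 and 7.29 TPM in CB-6644 and 14.8 TPM in DMSO (log2 fold change -0.92 pooled, adjusted p = 1.56e-06, and -0.94 own DMSO, adjusted p = 4.53e-05). In T3M-4 EV cells it held 6.22, 5.28 and 5.52 TPM and 15.7 TPM in DMSO (-2.19 pooled, adjusted p = 0.000199, and -1.32 own DMSO, adjusted p = 5.52e-05). The variant cells did not show this drop. A62T cells held 15.5 to 18.5 TPM beside 15.9 TPM in AsPC-1 and 41.4 to 44.3 TPM beside 48.0 TPM in T3M-4, and dF109 cells 14.8 to 16.1 TPM beside 13.4 TPM and 30.1 to 30.8 TPM beside 33.4 TPM. The change in A62T minus that in EV, each from its own DMSO, was 1.03 in AsPC-1 (adjusted p = 0.00124) and 1.15 in T3M-4 (adjusted p = 0.00634). For dF109 minus EV it was 1.14 (adjusted p = 0.000828) and 1.19 (adjusted p = 0.0153). In these comparisons of changes 18.9% of genes were called for A62T and 22.1% for dF109 in AsPC-1, and 3.42% and 1.4% in T3M-4.

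PITX1 in T3M-4 EV cells held 25.9, 24.4 and 17.7 TPM in CB-6644 and 63.8 TPM in DMSO (log2 fold change -1.76 pooled, adjusted p = 1.63e-05, and -1.47 own DMSO, adjusted p = 0.000494). In AsPC-1 EV cells it held 24.8, 29.0 and 28.6 TPM and 45.5 TPM in DMSO (-0.39 pooled, adjusted p = 0.0116, and -0.71 own DMSO, adjusted p = 0.000317). The pooled AsPC-1 value was -0.23 without the EV DMSO library and -0.65 under median-of-ratios scaling. In A62T cells PITX1 held 83.1 to 94.6 TPM beside 84.7 TPM in T3M-4 and 32.5 to 37.7 TPM beside 34.4 TPM in AsPC-1. The change in A62T minus that in EV was 0.74 in AsPC-1 (adjusted p = 0.00695) and 1.56 in T3M-4 (adjusted p = 0.0212). For dF109 it was 0.61 in AsPC-1 (adjusted p = 0.0152) and 1.17 in T3M-4, the latter not called (adjusted p = 0.0648).

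Other members changed less in these cells. TP63 in T3M-4 EV cells held 76.1, 62.7 and 43.1 TPM beside 83.8 TPM in DMSO and was not called (log2 fold change -0.50 own DMSO, adjusted p = 0.131), although the pooled value was called under median-of-ratios scaling (-0.45) and without CB-6644 replicate 1 (-0.53). SOX15 there held 71.9, 64.5 and 49.6 TPM beside 42.3 TPM (log2 fold change 0.55 pooled, adjusted p = 0.00429, and 0.53 own DMSO, adjusted p = 0.037), and the pooled call was lost with only the 2 groups compared (adjusted p = 0.0581). SOX2 in T3M-4 lay somewhat below its own DMSO level in each derivative, with 16.0 to 17.6 TPM beside 21.6 TPM in EV, 2.80 to 3.85 TPM beside 4.57 TPM in A62T and 4.53 to 5.27 TPM beside 6.25 TPM in dF109. Its pooled call in A62T cells (-1.12, adjusted p = 0.032) was -0.51 without the EV DMSO library, and it was lost without any 1 of the A62T CB-6644 libraries (adjusted p from 0.0642 to 0.0923). TFAP2A in AsPC-1 dF109 cells held 43.0, 47.0 and 31.0 TPM beside 23.9 TPM in DMSO (0.71 own DMSO, adjusted p = 0.0194). Other pooled calls in AsPC-1 were TP63 in EV cells (0.32, adjusted p = 0.0365), TFAP2A in A62T (0.49, adjusted p = 0.0488) and dF109 cells (0.47, adjusted p = 0.0311) and PITX1 in dF109 cells (-0.34, adjusted p = 0.0422), each lost under 6 or 7 alternatives. SOX15 in T3M-4 dF109 cells was called higher (0.50, adjusted p = 0.00974) but not under median-of-ratios scaling (0.15).

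When the variant and EV cells in CB-6644 were compared directly, 9 of 13 tested pairs were called for A62T, 2 lower and 7 higher, and 7 of 13 for dF109, 2 lower and 5 higher. Over all genes 20.2% were lower and 30.6% higher for A62T and 15.1% and 25.5% for dF109. In AsPC-1 51.1% of genes were called for A62T and 47.2% for dF109, and in T3M-4 50.6% and 34.6%, where the median of all genes was 0.27 and 0.24. This comparison carries the difference between derivatives that is also present in DMSO. ZBED2 was higher by 1.12 and 1.00 in AsPC-1 and by 2.71 and 2.24 in T3M-4 as a difference of log2(TPM + 1), for A62T and dF109. SOX2 in T3M-4 was lower by -2.02 and -1.59, which its DMSO libraries show as well, and the change from own DMSO in the variants minus EV was 0.006 for A62T (adjusted p = 0.995) and 0.055 for dF109 (adjusted p = 0.911).

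**Figure D4:**
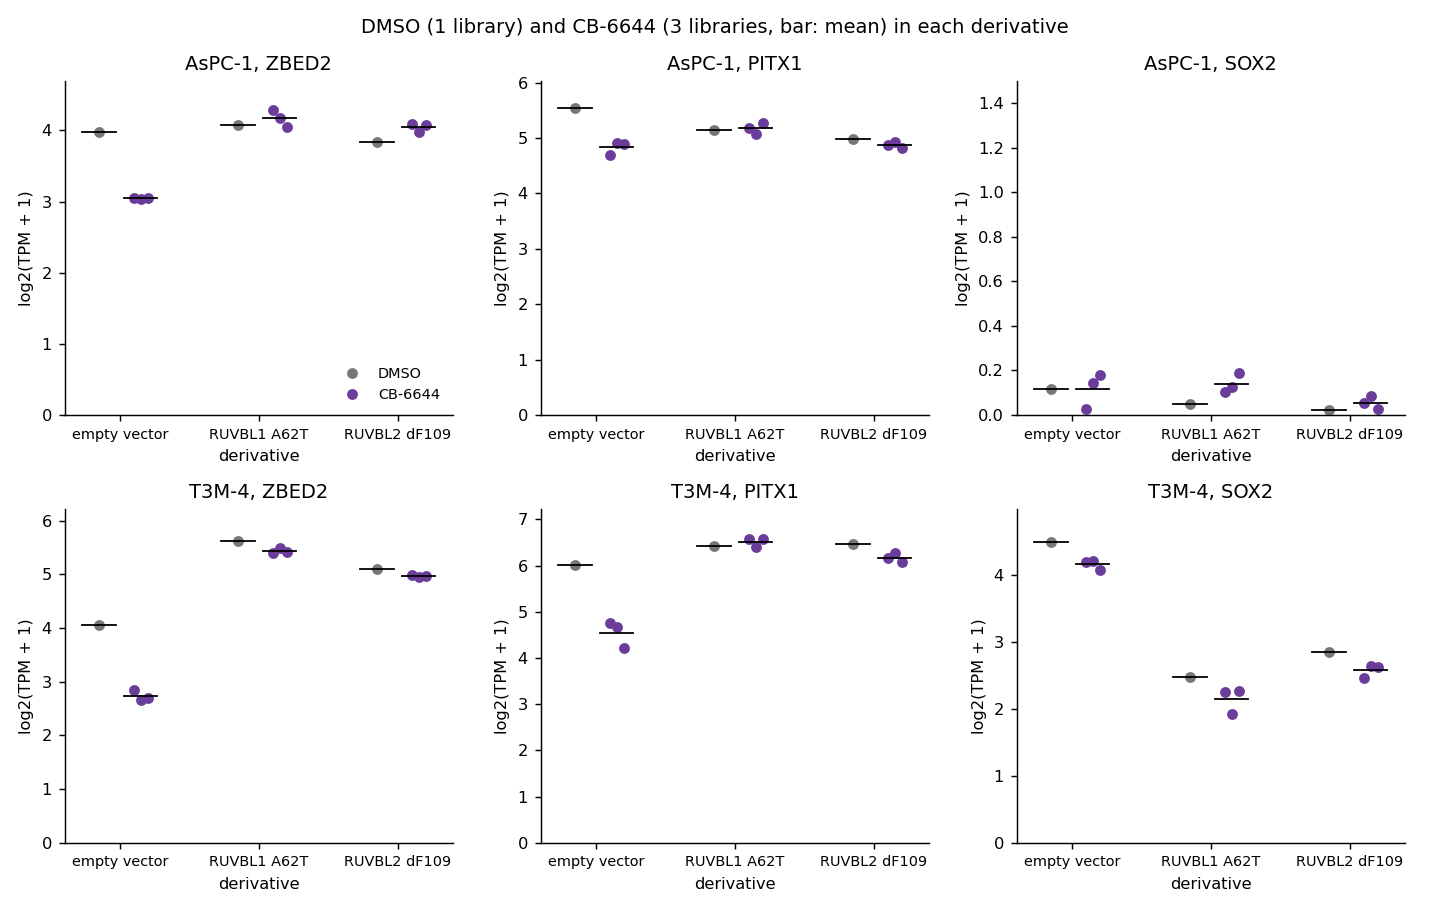
ZBED2, PITX1 and SOX2 as log2(TPM + 1) in DMSO (grey, 1 library) and CB-6644 (purple, 3 libraries, bar at the mean) for the empty vector, RUVBL1 A62T and RUVBL2 dF109 cells of AsPC-1 (upper row) and T3M-4 (lower row). ZBED2 and PITX1 drop from DMSO in the empty vector cells of both lines, and T3M-4 SOX2 differs between derivatives already in DMSO.

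In the lines of other tissues CB-6644 changed most of the transcriptome, and member calls are read against that: 71.4% of genes were called in T84, 81.1% in A375, 77.9% in H1048 and 77.7% in RH30, 26.3% of pairs lower and 50.8% higher. The median of all genes moved by 0.13 in T84 and RH30, 0.16 in A375 and 0.18 in H1048. Of 20 tested member pairs 7 were lower and 9 higher, shares near those of all genes. SOX15 was called higher in all 4 lines. It stood at 9.50, 9.92, 10.7 and 10.6 TPM against 2.54 to 2.97 TPM in A375 (log2 fold change 1.55, SE 0.06, adjusted p = 1.38e-09) and at 8.93, 9.31, 10.7 and 10.2 TPM against 2.94 to 3.46 TPM in H1048 (1.35, SE 0.07, adjusted p = 1.1e-08). In T84 it stood at 1.27 to 1.95 TPM against 0.568 to 1.03 TPM (0.52, adjusted p = 0.00104), and in RH30 at 2.72 to 4.0 TPM against 2.45 to 2.84 TPM with overlap (0.28, adjusted p = 0.0312, lost under 7 alternatives). SOX15 averaged 0.785 TPM in T84 DMSO and passed the 1 TPM filter only through the CB-6644 libraries.

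PITX1 was called lower in the 3 lines where it was tested. T84 held 19.0, 19.0, 20.7 and 16.6 TPM against 40.6 to 50.4 TPM (log2 fold change -1.20, SE 0.07, adjusted p = 1.62e-09), H1048 15.2 to 19.9 TPM against 22.2 to 23.5 TPM (-0.38, SE 0.07, adjusted p = 0.000204) and RH30 1.35 to 1.82 TPM against 2.25 to 3.09 TPM (-0.59, SE 0.10, adjusted p = 0.000153). None of these overlapped, and under median-of-ratios scaling the H1048 value was -0.59. SOX2 fell in A375 from 6.67 to 7.40 TPM in DMSO to 1.91 to 3.13 TPM (-1.22, SE 0.11, adjusted p = 1.16e-06), and in H1048 it held 1.26 to 2.04 TPM against 1.86 to 3.36 TPM with overlap (-0.46, SE 0.15, adjusted p = 0.0136). ZBED2 in T84 held 0.533 to 0.956 TPM against 1.58 to 2.12 TPM (-0.69, SE 0.11, adjusted p = 4.36e-05).

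A375 showed the sharpest change of an AP-2 gene. TFAP2C held 30.9, 29.6, 32.4 and 30.9 TPM in CB-6644 against 91.3 to 93.8 TPM in DMSO (log2 fold change -1.56, SE 0.03, adjusted p = 1.46e-11), while TFAP2A rose from 9.94 to 10.4 TPM to 14.4 to 17.0 TPM (0.56, SE 0.06, adjusted p = 3.58e-06, and 0.35 under median-of-ratios scaling). In H1048 TFAP2C was called higher by 0.15 (adjusted p = 0.0194), but the direction reversed under median-of-ratios scaling (-0.05), and the call was lost without CB-6644 replicate 4 or DMSO replicate 1. BNC1, an epidermal and germ cell factor, was at 3.28, 4.10, 3.35 and 3.70 TPM in treated A375 against 1.61 to 1.87 TPM (0.75, SE 0.08, adjusted p = 3.29e-06). Outside A375 it reached 1 TPM in 3 sgRUVBL1 libraries of BxPC-3, at 1.64, 1.18 and 1.34 TPM, and in the 4 CB-6644 libraries of RH30, at 1.16 to 1.64 TPM, and it was not tested there. TP63 in A375 was called higher by 0.22 (adjusted p = 0.0484), which was lost under 9 of 13 alternatives. TFAP2A in RH30 was called higher by 0.24 (adjusted p = 0.00375), at 6.14 to 6.99 TPM against 5.16 to 5.71 TPM, and this was 0.09 and lost under median-of-ratios scaling.

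The CB-6644 changes of the members were compared between these 4 lines in one fit. Of 30 tested pairs 8 were lower and 14 higher, against 28.0% and 26.9% over all genes. These counts include the pairs named below with a DMSO level near 0, so they are not read against those shares. The share of genes called was 58.3% for A375 minus T84, 50.2% for H1048 minus T84, 50.5% for RH30 minus T84, 56.9% for H1048 minus A375, 59.5% for RH30 minus A375 and 54.0% for RH30 minus H1048. The TFAP2C change in A375 was more negative than that in T84 by -1.41 (adjusted p = 2.65e-16), and the PITX1 change in T84 was more negative than in H1048 and RH30, the differences being 0.81 and 0.61. Some of these pairs set a line against one whose DMSO level was near 0, so that little or no fall could show there. These are the differences of PITX1 from A375 (0.390 TPM in DMSO), of TFAP2C from RH30 (0.0103 TPM) and of SOX2 from T84 (0.0374 TPM) and RH30 (0.0946 TPM), and nothing is read from them.

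**Figure D5:**
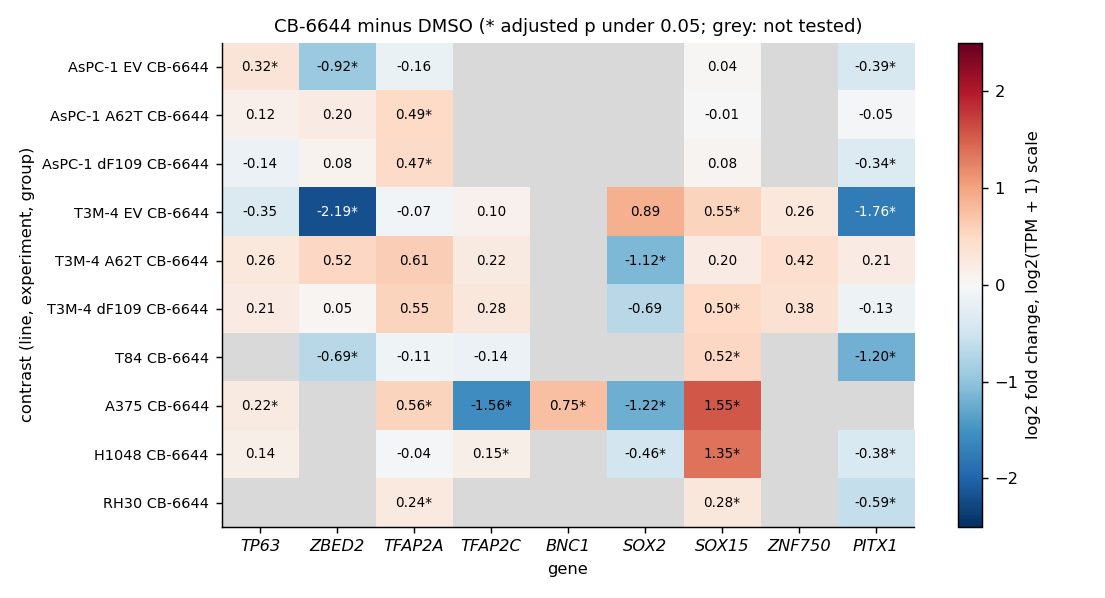
Log2 fold change on the log2(TPM + 1) scale of each gene (columns) in the 10 contrasts of CB-6644 with DMSO (rows). Blue is lower, red is higher, an asterisk marks an adjusted p under 0.05 and grey was not tested. PITX1 and ZBED2 are blue in the empty vector and T84 rows, SOX15 is red in the A375 and H1048 rows, and TFAP2C is blue in A375.

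The genes that these factors act on were counted from fixed lists. Like the members, the lists were chosen with earlier results of these data known, so their shares are no independent support. Of 24 p63 and basal layer targets, 171 pairs were tested in the KLF5 contrasts and 94 were lower (55.0%) and 8 higher (4.68%), beside 8.81% and 11.8% of all genes. KRT14, a keratin of the basal layer, fell from a mean of 570 TPM to 9.44 TPM in T3M-4 experiment 1 (log2 fold change -5.79, and -5.84 without sgKLF5 replicate 2), and KRT6A, a keratin of wounded and squamous epithelium, from 2308 TPM to 245 TPM in BxPC-3 experiment 1 (-3.24). KRT15 went the other way in AsPC-1 experiment 1 (1.12), as did KRT6B in BxPC-3 experiment 2 (1.55). After RUVBL1 knockout 41 of 103 pairs of this list were lower (39.8%, beside 20.1% of all genes) and 10 higher (9.71% beside 25.6%), and after RUVBL2 knockout 26 of 87 lower (29.9% beside 10.3%) and 9 higher (10.3% beside 19.8%). The keratin partner of KRT14, KRT5, had log2 fold changes of -2.25 and -2.0 in T3M-4. After CDK1 knockout the list gave 7 lower and 7 higher of 87 (8.05% each, beside 3.08% and 6.78% of all genes), and after RPA3 knockout 9 lower and 15 higher of 135 (6.67% and 11.1%, beside 3.57% and 6.25%). RUVBL1 minus the essential gene controls gave 39 lower and 6 higher of 87 (44.8% and 6.9%, beside 22.8% and 19.4%). CB-6644 gave 13 lower and 8 higher of 43 in EV cells (30.2% and 18.6%, beside 16.2% and 32.5%) and 30 lower and 21 higher of 58 in the non-pancreatic lines (51.7% and 36.2%, beside 26.3% and 50.8%).

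Of 22 genes of squamous differentiation, such as cornified envelope genes and late keratins, 55 of 118 pairs were lower after KLF5 knockout (46.6%) and 8 higher (6.78%), beside 8.81% and 11.8% of all genes. KRT4, a keratin of mucosal squamous epithelium, had a log2 fold change of -6.25 and SPRR3, a cornified envelope gene, -3.53 in T3M-4 experiment 1, and without sgKLF5 replicate 2 they were -5.99 and -3.41. RUVBL1 knockout gave 12 lower and 15 higher of 71 (16.9% and 21.1%, beside 20.1% and 25.6%) and RUVBL2 knockout 4 lower and 11 higher of 62 (6.45% and 17.7%, beside 10.3% and 19.8%), shares near or under those of all genes. Among those higher in T3M-4 were PRDM1 (1.83 and 1.35) and GRHL3 (1.3 and 1.2), regulators of late epidermal differentiation, as log2 fold changes in sgRUVBL1 and sgRUVBL2. CDK1 knockout gave 2 lower and 12 higher of 62 (3.23% and 19.4%, beside 3.08% and 6.78%) and RPA3 knockout 8 lower and 5 higher of 99 (8.08% and 5.05%, beside 3.57% and 6.25%). CB-6644 gave 10 lower and 6 higher of 31 in EV cells (32.3% and 19.4%, beside 16.2% and 32.5%), with the cornified envelope gene SPRR2A at -2.67 in T3M-4, and 19 lower and 8 higher of 33 in the non-pancreatic lines (57.6% and 24.2%, beside 26.3% and 50.8%). CHD4 knockout in AsPC-1 gave 7 lower and 8 higher of 18 basal targets (38.9% and 44.4%, beside 26.7% and 23.3%) and 4 lower and 5 higher of 11 differentiation genes (36.4% and 45.5%), with KRT16 at -1.97.

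Likeness of pattern was described by the Pearson correlation of log2(TPM + 1) over all libraries of the series, which share lines, controls and tables, so it mostly reflects differences between lines and carries no test. TP63 and ZNF750 correlated at 0.964, TP63 and SOX15 at 0.949, and SOX15 and ZNF750 at 0.916. TP63 and ZBED2 reached 0.582, and the most negative pair was PITX1 and BNC1 at -0.576. Over all genes TP63 was most like MAGEA1 (0.984), a cancer testis antigen, and ZNF750 most like SERPINB13 (0.973) and SPRR2D (0.971), both of differentiating squamous epithelium. SOX15 was most like TP63 itself. ZBED2 was most like UNC13D (0.841), FGFBP1 (0.823) and ADAM8 (0.818), SOX2 most like PTX3 (0.895), TFAP2C most like CLEC11A (0.922), TFAP2A most like ELF4 (0.814) and PITX1 most like ARHGEF16 (0.940). Over the 54 guide libraries of T3M-4 and BxPC-3, taken as differences from the sgRosa mean of their experiment, TP63 moved most like NECTIN1 (0.889), and CDH11 was among the genes most like ZBED2 (0.906).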

How the data were processed

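RNA was made into poly(A) libraries and read single-end. According to the submitters' notes and the study's methods, kallisto quantified the reads on hg38, scarce transcripts were dropped (the limit is not given in the sources used here), and transcript values were merged by gene. The deposited values are TPM made by the authors. Each library of the 8 tables has the same TPM total over 19875 genes, so counts and depth are lost.

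TPM values were put on a log2 scale here after adding 1. A model per line and experiment held all of its libraries (limma 3.58.1 in R 4.3.3, moderated with a mean trend), for genes averaging at least 1 TPM in it. P-values were adjusted by Benjamini-Hochberg over all genes tested, with a threshold of 0.05. The 3 DMSO libraries of AsPC-1 or T3M-4 were pooled as 1 control, and an added fit used each derivative's own. The script was tested on simulated data. Groups came from the sample labels, which do not say whether libraries are separate cultures, so p-values measure the spread between libraries. All 9 members are named in every group; other genes are those with the most extreme called changes in the fixed lists and those most correlated with a member, and a few of these are not reported here. Members and lists were chosen with earlier results of these data known. Alternatives were a pseudocount of 0.1 TPM, no low-value filter, a minimum mean of 5 TPM, median-of-ratios scaling, only the 2 groups compared, a replicate block, and each library left out. Tables and figures were made with pandas 2.3.3, numpy 2.4.6 and matplotlib 3.10.9.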

Additional observations from a re-analysis of the deposited data

Results flagged for a closer look

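In 167 pairs of a gene and a group of 4 to 10 libraries, the gene was tested for a library far from the others. Of these tests 13 found one, and chance alone marks about 1 in 20 such tests. Several tests share the same libraries, so they are not independent. In T3M-4 experiment 2, sgRosa replicate 4 held TFAP2A at 4.78 TPM (others 16.8 to 17.7 TPM) and ZNF750 at 1.83 TPM (others 3.93 to 4.47 TPM). In T3M-4 experiment 1, sgKLF5 replicate 2 held SOX2 at 5.18 TPM (others 27.4 to 34.0 TPM) and SOX15 at 20.5 TPM (others 34.3 to 36.4 TPM). CFPAC-1 sgRosa replicate 2 held ZBED2 at 4.44 TPM (others 18.2 to 20.5 TPM), and CFPAC-1 sgRosa replicate 1 held PITX1 at 31.3 TPM (others 26.7 to 27.1 TPM). In SUIT-2, sgRosa replicate 1 held TFAP2A at 4.02 TPM (others 9.82 to 11.1 TPM) and TFAP2C at 4.55 TPM (others 7.91 to 8.34 TPM), while sgKLF5 replicate 2 held TFAP2A at 4.40 TPM (others 10.9 to 12 TPM) and SOX15 at 1.22 TPM (others 1.7 to 1.76 TPM). AsPC-1 experiment 1 sgKLF5 replicate 6 held SOX15 at 4.37 TPM (others 1.54 to 2.24 TPM). In BxPC-3 experiment 2, PITX1 was at 59.2 TPM in sgKLF5 replicate 4 (others 56.3 to 56.7 TPM) and at 67.7 TPM in sgRosa replicate 4 (others 74.2 to 75.1 TPM).

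Of 50 differences between 2 effects of the same kind tested in limma, 26 were called. For KLF5 knockout 4 of 20 were called, all higher, beside 4.91% of all genes lower and 8.06% higher. For CB-6644 between lines 8 of 30 were lower and 14 higher, beside 28.0% and 26.9% of all genes. The 26 include the differences from lines with a DMSO level near 0 that are named below. The KLF5 knockout change was less negative in experiment 2 than in experiment 1 for ZBED2 in T3M-4 (difference 1.7) and BxPC-3 (2.41), and in BxPC-3 for SOX15 (1.43) and PITX1 (0.46). For CB-6644, the change in A375 minus that in T84 was 0.67 for TFAP2A, -1.41 for TFAP2C, -1.20 for SOX2, 1.03 for SOX15 and 1.00 for PITX1. H1048 minus T84 gave 0.29 for TFAP2C, -0.44 for SOX2, 0.84 for SOX15 and 0.81 for PITX1, and RH30 minus T84 gave 0.34 for TFAP2A and 0.61 for PITX1. H1048 minus A375 gave -0.60 for TFAP2A, 1.71 for TFAP2C and 0.76 for SOX2. RH30 minus A375 gave -0.32 for TFAP2A, 1.57 for TFAP2C, 1.17 for SOX2, -1.27 for SOX15 and -0.39 for PITX1. RH30 minus H1048 gave 0.28 for TFAP2A, 0.42 for SOX2 and -1.07 for SOX15. Adjusted p-values of these 26 differences ranged up to 0.0294. In DMSO, PITX1 averaged 0.390 TPM in A375, TFAP2C 0.0103 TPM in RH30 and SOX2 0.0374 TPM in T84 and 0.0946 TPM in RH30, so little or no fall could show there, and the differences of these genes from these lines largely restate the change of the other line.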

How the results depend on the processing

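Of the 95 member calls, 57 held under every alternative and 38 were lost under at least 1, and of 147 pairs not called 43 gained a call under at least 1. The direction reversed once, for TFAP2C in H1048 (-0.0548 under median-of-ratios scaling). Median-of-ratios scaling changed the counts of members lower to 8 after RUVBL2 knockout (5 as reported), 1 after CDK1 (0) and 2 after RPA3 (1), and the counts higher in CB-6644 to 1 in EV cells (2) and 5 in the non-pancreatic lines (9). A fit of only the 2 groups compared gave 3 lower for RUVBL2, 2 lower and 3 higher for CDK1 (0 and 6), 2 lower and 3 higher for RPA3 (1 and 6) and 0 higher in EV cells, with fewer libraries to estimate the spread. A mean of at least 5 TPM, which tests fewer genes, left 1 higher in EV cells and 3 lower and 5 higher in the non-pancreatic lines (7 and 9). The EV DMSO library as sole control gave 1 higher in EV cells, and own DMSO libraries gave 8 calls in place of 16 between variant and EV cells. For the other changes the cause was not tested.

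Leaving out 1 library at a time gave 3 to 7 lower for RUVBL2, 3 to 7 higher for RPA3, 1 to 3 higher in EV cells and 0 to 1 for RUVBL2 against RUVBL1, and 20 to 25 lower and 5 to 7 higher for KLF5. In no knockout or CB-6644 group did the deviations of every same-numbered pair of libraries correlate over 0.1, a rule that groups of 2 pairs could not meet. The rule cannot exclude a link between same-numbered libraries. In BxPC-3 experiment 2 sgKLF5 all 4 pairs correlated at 0.0269 to 0.195 (median of other pairs -0.0278), while most other groups held a negative pair. Whether the numbers follow guides was not tested. A fit with the replicate block gave 24 lower and 7 higher for KLF5 (22 and 6) and 10 and 4 for RUVBL1, as without it. In the CB-6644 derivatives the replicate block could not be fitted, since DMSO libraries carry no number. Depth is unknown, so levels near 1 TPM have no stated counting error.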

Other observations

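The nearest relatives of the members were taken as 20 paralogs such as other SOX, AP-2 and PITX genes. After KLF5 knockout 3 of 92 tested pairs were lower and 13 higher (3.26% and 14.1%, beside 8.81% and 11.8% of all genes), SOX4 in AsPC-1 experiment 1 being higher by 1.56 (log2 fold change, limma). After RUVBL1 knockout 23 of 57 pairs were lower and 9 higher (40.4% and 15.8%, beside 20.1% and 25.6%), and after RUVBL2 knockout 6 and 5 of 47 (12.8% and 10.6%, beside 10.3% and 19.8%). SOX4 fell in AsPC-1 experiment 3 (-1.38 and -0.93 in sgRUVBL1 and sgRUVBL2) and in AsPC-1 EV cells in CB-6644 (-1.04). SOX9, a ductal factor, was higher in T3M-4 sgRUVBL1 and sgRUVBL2 (1.43 and 1.05) but lower in T3M-4 EV cells in CB-6644 (-1.48). TP73 was higher after CDK1 knockout in BxPC-3 (1.03) and RPA3 knockout in T3M-4 (1.36). TFAP2B, an AP-2 gene like TFAP2C, was lower in A375 in CB-6644 (-1.60). CDK1 knockout gave 0 lower (limma) and 3 higher of 47 pairs, where 3.08% and 6.78% of all genes were called. RPA3 knockout gave 0 and 6 of 71, beside 3.57% and 6.25%. CB-6644 gave 5 lower and 9 higher of 23 in EV cells (21.7% and 39.1%, beside 16.2% and 32.5%) and 23 and 20 of 51 in the non-pancreatic lines (45.1% and 39.2%, beside 26.3% and 50.8%).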
